A study of Drosophila melanogaster with 12 samples.

Results

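HMG-minus was compared with wild-type Dichaete by setting the 4 arrays labelled UAS HMG- against the 4 arrays labelled UAS Dichaete WT, which are 8 of the 12 arrays of the study. The quantity compared was the difference of log2 ratios over GFP, HMG-minus minus DichaeteWT. The arrays were assigned by their labels, and no measured value decided which arrays were compared. The comparison asks what depends on the HMG domain, the part of Dichaete that binds DNA.

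Total RNA of whole Drosophila melanogaster embryos was hybridised to two-colour arrays. All embryos came from females carrying simGal4, a driver active in the ventral midline, crossed to males carrying a UAS construct, and were collected 3.5 to 4.5 h old, at stage 8 to 9, after growth at 25 °C. HMG-minus embryos carried UAS HMG-, DichaeteWT embryos carried the UAS construct of wild type Dichaete, and the embryos on the other channel of every array carried UAS GFP with the same driver. The labels give no sequence for HMG-, which is taken here as Dichaete without its HMG domain. The design text speaks of dominant negative constructs for the series, and no label applies that term to the wild type form. All groups keep their own D gene, and the constructs were driven in a small share of the cells whose RNA was measured. Whether GFP embryos of one collection served several arrays is not stated. Each group has 4 biological replicates, with the construct in Cy3 on replicates 1 and 2 and in Cy5 on replicates 3 and 4, so that dye orientation is the same on both sides of the comparison. The 4 EnRep arrays, of a further construct, entered the fit only for the shared estimates of spread and dye effect.

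Dichaete, encoded by D, and SoxNeuro, encoded by SoxN, are SoxB transcription factors that bind and bend DNA through an HMG domain and act together in the neuroectoderm. In the ventral midline Dichaete works with Single-minded and with the POU protein Ventral veins lacking, encoded by vvl, and sli, which encodes the axon repellent Slit, is a known target there. A protein without its HMG domain cannot bind DNA by itself but may still bind partner proteins. These statements are background and not results of these arrays.

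On these 8 arrays the median spot had an intensity of 247 to 433 in Cy3, over a local background of 71 to 130. In Cy5 it was 306 to 421, over 112 to 196. The spot finder accepted 71.8% to 92.4% of spots in both channels. Arrays of different groups were not independent in their residuals, which correlated at 0.67 between DichaeteWT replicate 2 and EnRep replicate 4. Precision is limited by the number of arrays. A typical SE of the difference, taken as the median over probes, was 0.14 log2, so the 95% interval of a typical probe reached 0.30 log2 to either side. The probes of D, SoxN, vvl, sli and comm were accepted in both channels on all 8 arrays, so transcripts of the neuroectoderm and midline were measured. The driver's gene sim has no probe among those tested and was not analysed here.

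No transcript passed the test between HMG-minus and DichaeteWT. Of 14485 probes, 0 were called (limma, adjusted p below 0.05, percent called 0), and the smallest adjusted p was 0.146. Unadjusted p was below 0.05 for 764 probes, or 5.27%, with 342 higher in HMG-minus (2.36%) and 422 lower (2.91%). The 4 HMG-minus arrays lay wholly above the 4 DichaeteWT arrays for 132 probes (0.911%) and wholly below them for 127 (0.877%), or 1.79% in all. A count of 0 does not show that the constructs act alike. The 95% interval of the difference lay within 0.5 log2 of 0 for 10480 probes (72.4%) and within 1 log2 for 13974 probes (96.5%). For the rest the interval includes a difference of that size or larger. Data of the same size were simulated with independent noise, with 100 probes changed by 1 log2 and 100 by 0.5 log2. There the fit found 80% of differences of 1 log2 but only 24% of those of 0.5 log2. These shares depend on how many probes change and on independent arrays, so they are not the power of this comparison. In whole embryos, fewer cells of a type and less RNA per cell cannot be told apart.

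**Figure D1:**
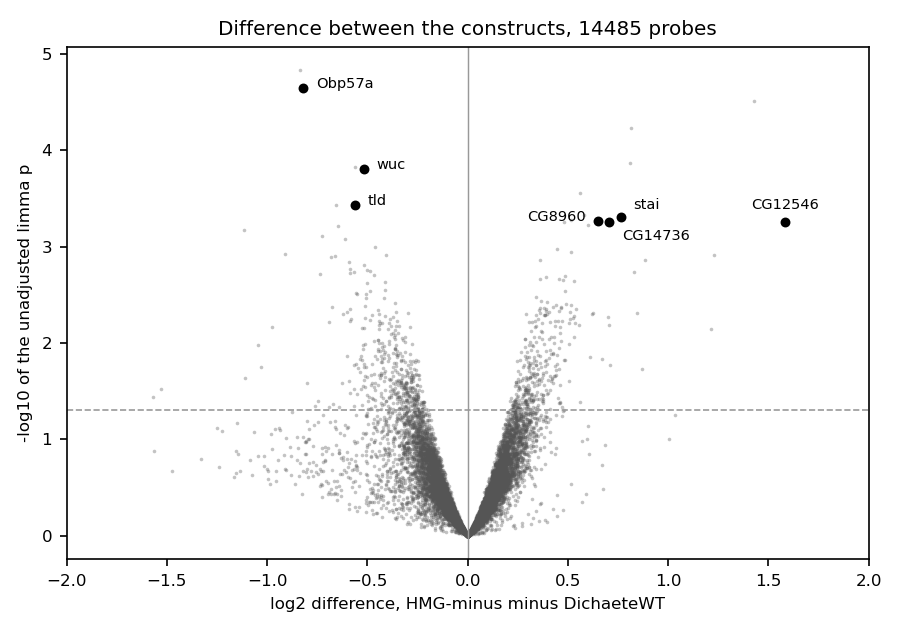
The log2 difference of HMG-minus minus DichaeteWT (horizontal axis) is plotted against −log10 of the unadjusted limma p (vertical axis) for 14485 probes, 1 point each, with the dashed line at p of 0.05. CG12546 lies farthest to the right at 1.58 log2, Obp57a has the highest point among the labelled genes at −0.82 log2, and no probe passed after adjustment.

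The largest difference of any probe was that of CG12546. Its log2 ratios over GFP were −0.55, 0.20, −1.22 and −0.40 on the HMG-minus arrays, against −1.96, −2.30, −1.97 and −2.06 on the DichaeteWT arrays. All 4 DichaeteWT values lay below every HMG-minus value, and relative to GFP CG12546 fell by 2.07 log2 in DichaeteWT embryos (SE 0.24, limma adjusted p = 0.00168), while the HMG-minus value of −0.49 was not called (adjusted p = 0.420). The difference was 1.58 log2 (SE 0.34, 95% interval 0.83 to 2.33, 2.99-fold, unadjusted p = 0.000548, adjusted p = 0.458). It passed the adjusted threshold only without EnRep replicate 4 (adjusted p = 0.038), an array of neither group.

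Among the other probes that ranked highest on the HMG-minus side was stai, which encodes stathmin, a regulator of microtubule assembly. Its log2 ratios were 0.44, 0.57, 1.15 and 0.97 in HMG-minus embryos, against 0.26, −0.15, −0.06 and 0.04 in DichaeteWT embryos. The groups did not overlap, the HMG-minus arrays lay above GFP on 4 of 4, and the DichaeteWT arrays scattered around 0. The difference was 0.76 log2 (SE 0.16, 95% interval 0.41 to 1.12, adjusted p = 0.458). It was 0.45 on the arrays with the construct in Cy3 and 1.08 on those in Cy5.

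CG14736 had log2 ratios of 1.06, 0.47, 0.44 and 0.92 in HMG-minus embryos, against −0.22, 0.17, −0.03 and 0.14 in DichaeteWT embryos. It too separated the groups, and it rose over GFP in HMG-minus embryos by 0.72 log2 (SE 0.11, adjusted p = 0.00934), with a difference of 0.71 log2 (SE 0.15, adjusted p = 0.458). With print-tip loess in place of loess over the whole array this difference passed (0.74 log2, adjusted p = 0.0135). CG8960 was the reverse case, near GFP in HMG-minus embryos at −0.09, 0.04, −0.04 and −0.23 and below it in DichaeteWT embryos at −0.90, −0.88, −0.38 and −0.76, a difference of 0.65 log2 (SE 0.14, adjusted p = 0.458). The mitochondrial ribosomal protein gene mRpS17 had the same form, with 0.05, 0.07, −0.17 and −0.11 in HMG-minus embryos, against −0.52, −0.63, −0.37 and −0.70 in DichaeteWT embryos. Its DichaeteWT value of −0.56 was called (adjusted p = 0.00739), and its difference was 0.51 log2 (SE 0.11). The remaining named probes on this side were dyw at 0.60, tbrd-3 at 0.58, CCDC53, a subunit of the WASH complex that drives actin assembly on endosomes, at 0.52, and dlt at 0.45 log2. Tbcc, a tubulin folding cofactor, is named without a size because its spot was accepted on 1 array of each group.

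On the side lower in HMG-minus the smallest p among named genes was that of Obp57a, a member of the odorant-binding protein family. Its log2 ratios were −0.52, −0.25, −0.70 and −1.02 in HMG-minus embryos, against 0.55, 0.29, 0.09 and −0.15 in DichaeteWT embryos. No value of one group reached into the other. The difference was −0.82 log2 (SE 0.13, 95% interval −1.09 to −0.55, unadjusted p = 2.2e-05, adjusted p = 0.146), and it passed with print-tip loess (−0.83 log2, adjusted p = 0.0246).

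The developmental gene in this group was tld, which encodes Tolloid, the metalloprotease that cleaves Sog and so shapes the BMP gradient of the dorsal embryo. It had −0.11, 0.17, −0.02 and −0.05 log2 in HMG-minus embryos, against 0.57, 0.54, 0.70 and 0.42 in DichaeteWT embryos. The HMG-minus arrays sat at GFP, and the DichaeteWT arrays were all above it, without overlap. Over GFP, tld rose in DichaeteWT embryos by 0.56 log2 (SE 0.08, adjusted p = 0.0103), against a value of 0.00 in HMG-minus embryos. The difference was −0.56 log2 (SE 0.12, 95% interval −0.81 to −0.31, adjusted p = 0.458), with −0.53 on the Cy3 and −0.60 on the Cy5 arrays. It passed with print-tip loess (−0.65 log2, adjusted p = 0.0246). None of the other 13 dorsal ectoderm and amnioserosa genes measured had an unadjusted p below 0.05, and that list had a median difference of −0.05 log2.

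Further probes named on this side lay between −0.66 and −0.41 log2. They were CG14275 at −0.66, Aldh7A1, an aldehyde dehydrogenase, at −0.66, CG42390 at −0.65, CG8745 at −0.61, wuc at −0.52, Cpsf5, a subunit of the mRNA cleavage and polyadenylation machinery, at −0.46, and CG14960 at −0.41. The groups overlapped for Aldh7A1 and CG42390. CG14960 had 0.22 log2, the opposite sign, when the construct channel was fitted alone, after both channels were normalised together. The spot of tomboy20 was accepted on no array of either group, so it has no size.

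**Figure D2:**
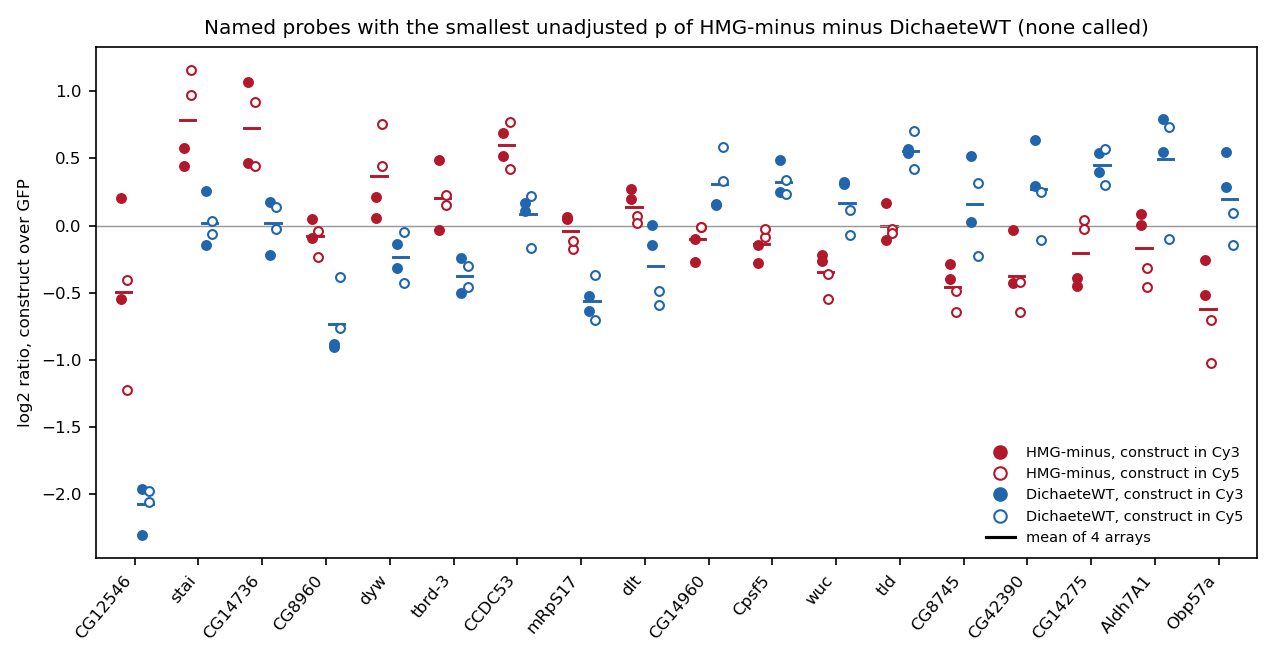
Each point is the log2 ratio of construct over GFP on 1 array (vertical axis) for the named probes with the smallest unadjusted p of the difference, without Tbcc and tomboy20, which have no size, ordered by the difference, with HMG-minus in red left of DichaeteWT in blue and bars at the mean of 4 arrays. The CG12546 points of DichaeteWT all lie below −1.9, and among the probes plotted the groups overlap only for CG42390 and Aldh7A1.

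The transcript of D itself was measured with 1 probe, which may detect transcripts of the gene, of a construct or of both. Its log2 ratios were 0.58, 0.71, −0.28 and −0.24 in HMG-minus embryos, against 0.97, 1.09, −0.06 and −0.14 in DichaeteWT embryos. In both groups the arrays with the construct in Cy3 were the high ones, and the groups overlapped, but within each dye orientation both HMG-minus arrays lay below both DichaeteWT arrays. The difference was −0.27 log2 (SE 0.11, 95% interval −0.51 to −0.03, unadjusted p = 0.0282, adjusted p = 0.903). It was −0.39 on the Cy3 and −0.16 on the Cy5 arrays, and 0.05 when the construct channel was fitted alone, so its sign depends on that setting. Over GFP, D was called higher in DichaeteWT embryos, at 0.47 log2 (SE 0.08, limma adjusted p = 0.0208), although its Cy5 arrays lay below GFP. The HMG-minus value of 0.19 log2 was not called (adjusted p = 0.317). The level of each construct's own RNA is not known from these arrays.

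Regulators and targets of the midline gave no difference that passed. SoxN had −0.17, −0.14, −0.11 and −0.04 log2 in HMG-minus embryos, against −0.94, −0.28, −0.20 and 0.21 in DichaeteWT embryos. The difference of 0.18 log2 (95% interval −0.22 to 0.59) rested on the lowest DichaeteWT array. Its sign turned with array weights (−0.04) and with the construct channel fitted alone (−0.13). For vvl the values were 0.09, −0.03, 0.25 and 0.39 in HMG-minus embryos, against −0.06, 0.01, 1.14 and 0.42 in DichaeteWT embryos, a difference of −0.20 log2 (95% interval −0.66 to 0.25). The target gene sli had −0.09, −0.23, 0.53 and 0.35 in HMG-minus embryos, against 0.01, 0.12, 0.11 and 0.18 in DichaeteWT embryos. Its difference was 0.04 log2, with −0.22 on the Cy3 and 0.30 on the Cy5 arrays. The 95% interval of −0.23 to 0.30 takes the arrays as independent. On that footing it leaves out a change of more than 0.30 log2 in the RNA of the whole embryo. For comm, which sorts the Slit receptor away from the axon surface, the difference was 0.09 log2 (95% interval −0.24 to 0.42). The signs of sli and comm also turned under at least 1 alternative.

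The midline as a whole was described with lists of known genes. Of 13 midline primordium and midline glia genes, 0 were called and 1 had an unadjusted p below 0.05, lower in HMG-minus, against 2.91% of all probes. That gene was otk, a transmembrane receptor of the PTK7 family, with −0.17, −0.35, 0.01 and −0.18 log2 in HMG-minus embryos, against 0.37, 0.38, −0.02 and 0.28 in DichaeteWT embryos, and a difference of −0.43 log2 (SE 0.14, adjusted p = 0.817). The list had 7 probes above 0 and 6 below, and a median difference of 0.00 log2, against −0.01 over all probes. On the Cy3 arrays the median was 0.08 log2 and on the Cy5 arrays −0.20 log2. For 9 of the 13 the 95% interval lay within 0.5 log2 of 0, as it did for 72.4% of all probes. Among the exceptions was Gasp, a chitin-binding protein of the later cuticle and tracheae, at −0.80 log2 with an interval of −2.15 to 0.54. Genes of midline neurons had a median difference of −0.08 log2 over 10 probes, of which 0 had an unadjusted p below 0.05. In that list ple, tyrosine hydroxylase of dopaminergic neurons, came nearest at −0.45 log2 (95% interval −0.92 to 0.02).

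Genes of axon guidance at the midline had a median difference of −0.06 log2 over 11 probes. NetB, the guidance ligand Netrin-B, was its 1 member with an unadjusted p below 0.05, at −0.27 log2 (SE 0.11, adjusted p = 0.903), and its receptor fra was at −0.18 log2 (95% interval −0.51 to 0.14). Among 18 proneural and neuroblast genes 1 had an unadjusted p below 0.05 in each direction, or 5.56% each, against 2.36% of all probes higher and 2.91% lower. The lower one was cas, which encodes the late neuroblast timing factor Castor, with −0.40, −0.58, −0.09 and −0.03 log2 in HMG-minus embryos, against 0.03, 0.05, 0.12 and 0.50 in DichaeteWT embryos. The groups did not overlap, and the difference was −0.45 log2 (SE 0.13, adjusted p = 0.719), but DichaeteWT replicate 4 was the high array of a group whose other 3 lay near 0. The higher one was brat, a translational repressor of neuroblast daughter cells, at 0.29 log2 (SE 0.12, adjusted p = 0.903). The median difference of the 18 genes was 0.08 log2 on the Cy3 and −0.16 log2 on the Cy5 arrays. The intermediate column gene ind was at −0.25 log2 (95% interval −0.60 to 0.10). Genes of the EGF receptor pathway had a median difference of 0.00 log2 over 12 probes, and 0 of them had an unadjusted p below 0.05.

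HMG-minus had 124 called probes (0.856%), 61 higher (0.421%) and 63 lower (0.435%), and DichaeteWT had 125 (0.863%), 55 higher (0.380%) and 70 lower (0.483%). From the deposited ratios the counts were 186 for HMG-minus and 65 for DichaeteWT. Both sets of arrays were set against embryos expressing GFP, so the members' values are given side by side and no overlap is drawn from them. Of the 124 probes called in HMG-minus, the interval of the difference included 0 for 80 and lay within 0.5 log2 of 0 for 67. Of the 125 called in DichaeteWT, it included 0 for 83 and lay within 0.5 log2 of 0 for 68. These probes were picked for being far from GFP in 1 of the groups compared, which by itself favours a difference, so the intervals that leave out 0 are no separate evidence of one.

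Several of the largest changes over GFP were of closely similar size in HMG-minus and DichaeteWT embryos. Both values are ratios to GFP embryos, so a level particular to those embryos would enter both alike. Whether it did was not tested. HnRNP-K, which encodes an RNA-binding hnRNP protein, had −1.17, −1.07, −1.25 and −1.23 log2 in HMG-minus embryos, against −0.97, −0.94, −1.29 and −1.47 in DichaeteWT embryos, on its first probe. Its difference was −0.01 log2 (95% interval −0.31 to 0.29), and the second probe gave −0.11 log2 (95% interval −0.38 to 0.15). Both probes fell in both groups, by 0.98 to 1.18 log2 in HMG-minus and by 0.87 to 1.17 log2 in DichaeteWT. CG13991 gave the narrowest interval, with a difference of −0.02 log2 (95% interval −0.24 to 0.20) between called values of −0.83 in HMG-minus and −0.81 in DichaeteWT embryos. Cyp4p2, a cytochrome P450, had called values of −1.41 log2 in HMG-minus and −1.32 log2 in DichaeteWT embryos, and a difference of −0.09 (95% interval −0.50 to 0.31). EAChm, which enhances the acetyltransferase Chameau, had called values of −1.43 log2 in HMG-minus and −1.28 log2 in DichaeteWT embryos, with a difference of −0.15 (95% interval −0.60 to 0.30).

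Among transcripts that rose in both groups, Faa, the last enzyme of tyrosine breakdown, had 0.74 log2 in HMG-minus and 0.71 log2 in DichaeteWT embryos and a difference of 0.02 log2 (95% interval −0.39 to 0.44). In the EGF receptor pathway kek1, an inhibitor of the receptor, fell by 0.61 log2 in HMG-minus embryos and by 0.43 log2 in DichaeteWT embryos, with a difference of −0.18 log2 (95% interval −0.45 to 0.09). CG14453, CG13794 and CG15236 were also called lower in both, with differences of 0.13, −0.26 and −0.19 log2. CG14897 rose by 1.09 log2 in HMG-minus and 0.79 log2 in DichaeteWT embryos on 1 probe, with a difference of 0.30 log2 (95% interval −0.16 to 0.76). CG15345 was called in both and is given no size, since its spot was accepted on 1 array of each group. For the probes with a size the intervals still allow differences of 0.2 to 0.8 log2.

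**Figure D3:**
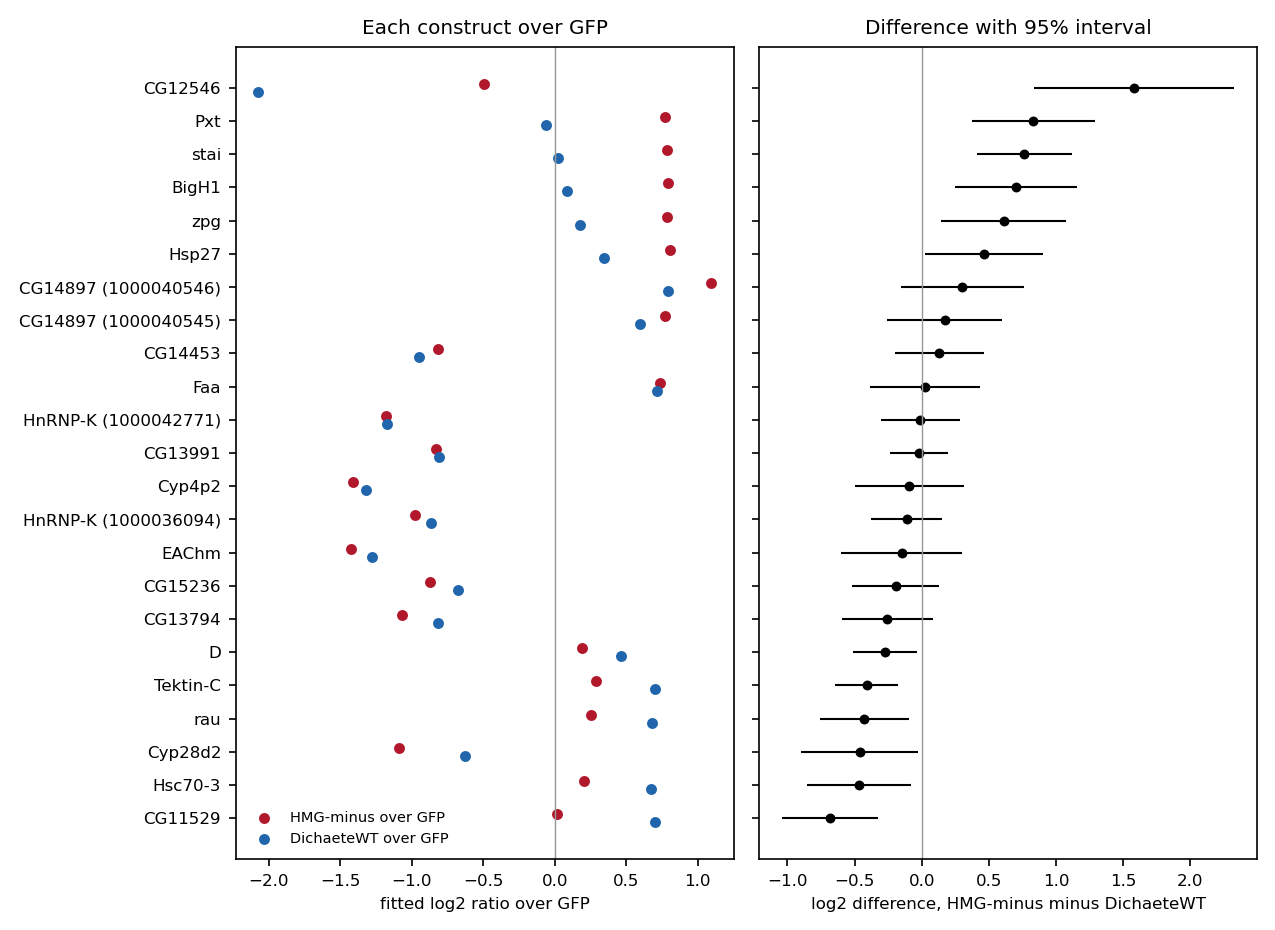
The left panel gives the fitted log2 ratio over GFP of each construct, HMG-minus in red above DichaeteWT in blue, for D and named probes with the largest called changes over GFP. The right panel gives the log2 difference of HMG-minus minus DichaeteWT with its 95% interval, which runs from 1.58 for CG12546 to −0.68 for CG11529 and straddles 0 for HnRNP-K, CG13991 and Faa.

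Other called changes came with unlike values in the other group. Besides stai and CG14736, several genes were called higher in HMG-minus and not called in DichaeteWT. CCDC53 rose by 0.60 log2 in HMG-minus embryos (adjusted p = 0.00751), against 0.08 log2 in DichaeteWT embryos. Pxt, a cyclooxygenase-like enzyme that acts during oogenesis, had 0.55, 0.76, 1.07 and 0.70 log2 in HMG-minus embryos, against 0.64, −0.40, −0.25 and −0.25 in DichaeteWT embryos. DichaeteWT replicate 1 was the high array of its group and made the groups overlap, and the difference was 0.83 log2 (SE 0.21, 95% interval 0.37 to 1.29, adjusted p = 0.676). BigH1, the linker histone of the early embryo and germ line, had 0.87, 0.97, 0.72 and 0.59 log2 in HMG-minus embryos, against 0.86, 0.49, −0.45 and −0.55 in DichaeteWT embryos. Its groups differed on the Cy5 arrays (1.16 log2) more than on the Cy3 arrays (0.25 log2), and the difference of 0.70 log2 was not called (SE 0.21, adjusted p = 0.719).

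The germline gap junction gene zpg, an innexin, had 0.33, 0.35, 1.21 and 1.24 log2 in HMG-minus embryos, against 0.37, 0.22, −0.20 and 0.31 in DichaeteWT embryos, a difference of 0.61 log2 (SE 0.21, adjusted p = 0.867). Here the difference came from the Cy5 arrays, at 1.17 log2, and was 0.05 log2 on the Cy3 arrays. Hsp27, a small heat shock protein also made in nurse cells, had a difference of 0.46 log2 (SE 0.20, adjusted p = 0.903), with 0.01 on the Cy3 and 0.91 on the Cy5 arrays. In none of these genes did the dye orientation change the difference beyond the test (limma interaction, 0 of 14485 probes called, 1291 or 8.91% at unadjusted p below 0.05).

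Cyp28d2, a cytochrome P450, had −1.16, −0.50, −1.27 and −1.43 log2 in HMG-minus embryos, against −0.17, −0.30, −1.29 and −0.75 in DichaeteWT embryos. It was called lower in HMG-minus and not in DichaeteWT (adjusted p = 0.0667), the groups overlapped, and the difference was −0.46 log2 (SE 0.20, adjusted p = 0.903).

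In the other direction, Tektin-C, a protein of ciliary microtubules, had −0.01, 0.20, 0.38 and 0.59 log2 in HMG-minus embryos, against 0.57, 0.42, 0.86 and 0.95 in DichaeteWT embryos. It rose over GFP in DichaeteWT embryos by 0.70 log2 (adjusted p = 0.00102) and was at 0.29 log2 in HMG-minus embryos (adjusted p = 0.115), with a difference of −0.41 log2 (SE 0.11, adjusted p = 0.685). CG11529 had 0.17, 0.08, 0.05 and −0.23 log2 in HMG-minus embryos, against 0.41, 1.27, 0.63 and 0.48 in DichaeteWT embryos, without overlap, and a difference of −0.68 log2 (SE 0.17, adjusted p = 0.622). The ER chaperone gene Hsc70-3 and the Ras-binding gene rau, called higher in DichaeteWT, had differences of −0.47 log2 (95% interval −0.85 to −0.08) and −0.43 log2 (95% interval −0.76 to −0.10). Fadd, an adaptor of the immune Imd pathway, was called higher in DichaeteWT and is given no size, since its spot was accepted on no HMG-minus array. A value called in 1 group and not in the other does not show that the groups differ, and none of these differences passed.

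The gene list with the highest median difference was that of maternal transcripts, which mothers load into the egg and which are cleared as the embryo's own genes take over. Its median log2 ratio per array was 0.19, 0.24, 0.45 and 0.47 in HMG-minus embryos, against 0.03, −0.03, −0.19 and −0.02 in DichaeteWT embryos. The groups did not overlap. The median difference was 0.30 log2 over 13 probes of 11 genes, against −0.01 over all probes, and 13 of 13 probes lay above 0, against 48.6% of all probes. None was called, and 7 had an unadjusted p below 0.05, all higher, against 2.36% of all probes. The list was known from earlier results of these data to stand out, so the counts are no independent support for it, and its members share arrays. The median difference was 0.15 log2 on the Cy3 arrays, with 10 of 13 above 0, and 0.39 log2 on the Cy5 arrays, with 12 of 13 above 0. When the construct channel was fitted alone it was 0.16 log2.

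Among these transcripts osk, which nucleates the pole plasm, was measured by 2 probes. The first had 0.09, 0.35, 1.14 and 1.29 log2 in HMG-minus embryos, against 0.18, −0.55, 0.53 and 0.24 in DichaeteWT embryos, and the second had 0.19, 0.73, 1.13 and 0.81 log2 in HMG-minus embryos, against 0.76, 0.03, 0.15 and 0.10 in DichaeteWT embryos. HMG-minus replicates 3 and 4 were the high arrays on both probes, and both probes rose over GFP in HMG-minus embryos, by 0.72 log2 each (adjusted p = 0.0236 and 0.0386). The differences were 0.62 log2 (SE 0.18, adjusted p = 0.719) and 0.46 log2 (SE 0.20, adjusted p = 0.903). The widest gap was that of swa, whose product helps to anchor bicoid RNA, at 0.18, 0.54, 1.32 and 1.20 in HMG-minus embryos, against 0.51, 0.25, −1.004 and 0.01 in DichaeteWT embryos. Its difference of 0.87 log2 (SE 0.32, adjusted p = 0.894) was 1.76 on the Cy5 arrays and −0.02 on the Cy3 arrays.

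More even between orientations was plu, a regulator of the early syncytial divisions, at 0.62, 0.26, 0.03 and 0.50 log2 in HMG-minus embryos, against −0.17, 0.13, −0.37 and −0.41 in DichaeteWT embryos. Its difference of 0.56 log2 (SE 0.17, adjusted p = 0.724) was 0.46 on the Cy3 and 0.65 on the Cy5 arrays. The meiotic phosphatase gene twe was at 0.42 log2 (95% interval 0.07 to 0.77) and the protein kinase gene png at 0.30 log2 (95% interval 0.00 to 0.60). On 1 of its 2 probes exu, which acts in bicoid RNA localisation, was at 0.29 log2 without overlap of the groups, and on the other at 0.06 log2. For smg, a repressor and destabiliser of maternal RNA, the difference of 0.60 log2 (95% interval −0.06 to 1.26) was −0.29 on the Cy3 and 1.49 on the Cy5 arrays. The dependence of smg on orientation was called without EnRep replicate 3. Leaving out EnRep replicate 4 instead gives the same interaction result, so these are not separate results. The remaining members, bcd at 0.27, fs(1)K10 at 0.26, tor at 0.19 and stau at 0.06 log2, have intervals that include 0.

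**Figure D4:**
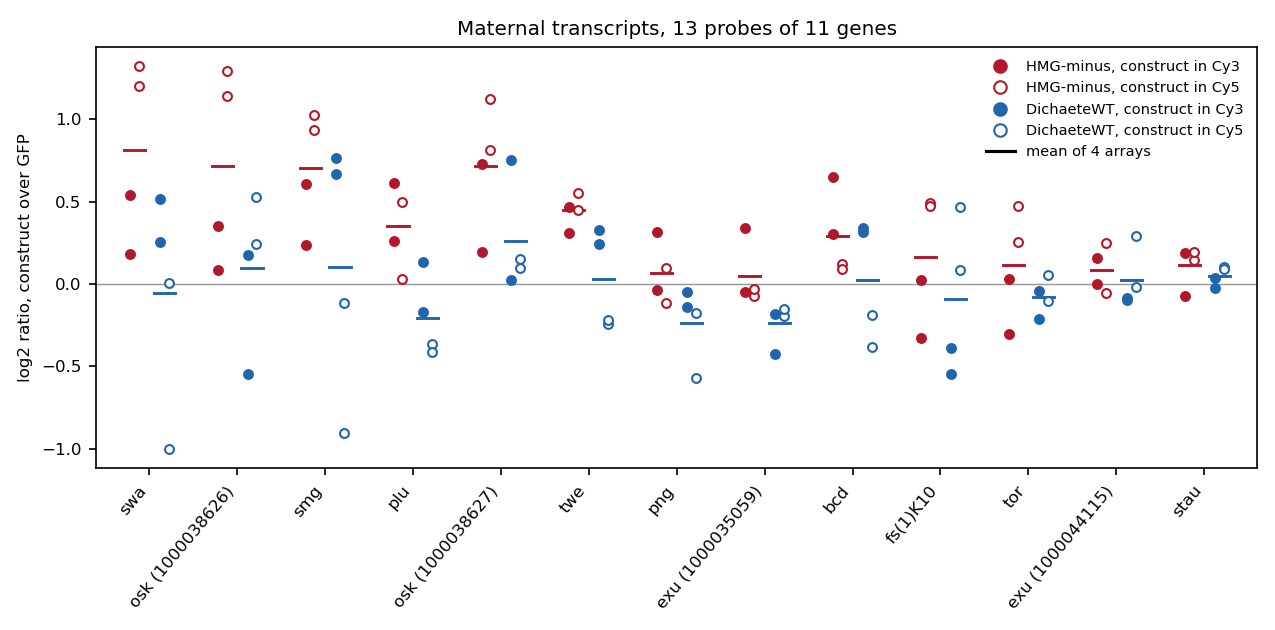
Each point is the log2 ratio of construct over GFP on 1 array (vertical axis) for the 13 probes of maternal transcripts, ordered by their difference, with HMG-minus in red left of DichaeteWT in blue, filled points for the construct in Cy3, open points for Cy5 and bars at the mean of 4 arrays. The HMG-minus mean lies above the DichaeteWT mean for all 13 probes, and the highest points of swa and osk are HMG-minus arrays with the construct in Cy5.

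Genes of germ cells and pole plasm, a list that shares osk with the maternal one, had a median difference of 0.16 log2 over 9 probes, with 3 at an unadjusted p below 0.05, namely zpg and both osk probes. All 3 were higher, or 33.3% of the list against 2.36% of all probes. Without these the list held vas, the germline RNA helicase, at 0.16 log2 (95% interval −0.07 to 0.39), gcl at 0.15, CycB at 0.16, aub at 0.08, tud at −0.12 and ovo at −0.18 log2. All of these intervals include 0. Among histone genes BigH1 stood apart from the replication-dependent histones. His3:CG31613 was at −0.37 log2 (SE 0.17), His1:CG31617 at −0.32 (SE 0.16), His2B:CG17949 at −0.25 (SE 0.17), His4:CG31611 at −0.23 (SE 0.15) and His2A:CG31618 at −0.14 log2 (SE 0.17). On each of these 5 probes HMG-minus replicate 1 was the lowest array of its group, and the copies of these genes are near-identical, so the probes may share transcripts.

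Lists meant for other embryonic ages were set beside the maternal one. Genes listed as blastoderm genes, among them gd and zld, had a median difference of −0.04 log2 over 7 probes, and 0 had an unadjusted p below 0.05. Genes of later muscle and cuticle, hardly used at this stage, had a median difference of −0.33 log2 over 14 probes, with 12 below 0 and 0 at an unadjusted p below 0.05. Their median per array was −0.27, −0.01, −0.63 and −0.22 log2 in HMG-minus embryos, against 0.13, 1.07, −0.53 and −0.74 in DichaeteWT embryos. DichaeteWT replicate 2 stood apart, the groups overlapped, and the median difference was −0.89 log2 on the Cy3 arrays and 0.10 log2 on the Cy5 arrays. Without single arrays of the fit it ran from −0.63 to 0.00 log2. The SE of these probes was wide, with a median of 0.46 log2, and the muscle gene up, which encodes troponin T, ran from −1.15 to 1.16 log2 over the HMG-minus arrays and from −2.18 to 2.57 log2 over the DichaeteWT arrays. Whether embryo age took part in the maternal difference was not tested.

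Most patterning lists lay close to all probes. Median differences were 0.08 log2 for 6 pair-rule genes, −0.04 for 10 gap and terminal genes, −0.07 for 6 Hox probes, −0.16 for 9 segment polarity genes and 0.00 for 7 mesoderm genes. The segment polarity median was 0.01 log2 on the Cy3 and −0.28 log2 on the Cy5 arrays. Among pair-rule genes eve had 0.17, 0.45, 0.55 and 0.27 log2 in HMG-minus embryos, against 0.10, 0.01, −0.17 and 0.01 in DichaeteWT embryos. The groups did not overlap, and the difference was 0.37 log2 (SE 0.11, adjusted p = 0.719). The mesoderm gene twi was at 0.34 log2 (95% interval −0.03 to 0.71). The endoderm list, with 5 genes, was the only other list of 28 whose array medians did not overlap, at −0.10, −0.25, −0.05 and −0.16 log2 in HMG-minus embryos, against −0.03, −0.04, 0.18 and 0.02 in DichaeteWT embryos. Its members ranged from −0.27 log2 for fkh to −0.06 for grn, and 0 had an unadjusted p below 0.05.

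Genes of Notch signalling and the E(spl) complex had a median difference of −0.21 log2 over 11 probes, with 9 below 0. The median was −0.34 log2 on the Cy5 arrays and 0.06 log2 on the Cy3 arrays. E(spl)m4-BFM was the 1 member with an unadjusted p below 0.05, at −0.23, −0.08, −0.10 and −0.14 log2 in HMG-minus embryos, against 0.47, 0.13, 0.33 and 0.10 in DichaeteWT embryos. It separated the groups, with a difference of −0.39 log2 (SE 0.13, adjusted p = 0.817). Haemocyte genes had a median difference of −0.18 log2, with 10 of 11 probes below 0 and 1 above, against 48.6% of all probes above 0. The 1 above was a probe of Pxn, which encodes the matrix enzyme peroxidasin. It was the list's 1 probe with an unadjusted p below 0.05 and separated the groups, but its spot was accepted on 1 array of each group, so it has no size. The other Pxn probe was at −0.17 log2 (95% interval −0.41 to 0.06), and Ppn, a matrix protein, was at −0.51 log2 (95% interval −1.03 to 0.02).

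Among genes of cell metabolism 8 of 90 cytochrome P450 probes had an unadjusted p below 0.05 and were lower, or 8.89% against 2.91% of all probes, and 0 were higher. Cyp4e2 had −0.01, −0.05, −0.09 and 0.04 log2 in HMG-minus embryos, against 0.62, 0.74, 0.40 and 0.47 in DichaeteWT embryos. The groups did not overlap, it rose over GFP in DichaeteWT embryos by 0.56 log2 (adjusted p = 0.0299), and the difference was −0.59 log2 (SE 0.15, adjusted p = 0.627). Cyp6a16Psi was at −0.56 log2 (SE 0.15, adjusted p = 0.719), also without overlap. The median over all 90 P450 probes was −0.03 log2. Among 42 proteasome probes 7 were higher at an unadjusted p below 0.05, or 16.7% against 2.36%, and 1 was lower. Prosbeta7, a subunit of the catalytic core, had 0.21, 0.20, 0.24 and 0.14 log2 in HMG-minus embryos, against 0.10, −0.21, −0.25 and −0.14 in DichaeteWT embryos, a difference of 0.32 log2 (SE 0.11, adjusted p = 0.826) without overlap. The median over the proteasome list was 0.04 log2. Its array medians overlapped, at 0.02 to 0.11 log2 in HMG-minus embryos and −0.22 to 0.07 log2 in DichaeteWT embryos. DichaeteWT replicate 3 was the low array. Ribosomal protein genes had a median of 0.05 log2 over 52 probes and 0 at an unadjusted p below 0.05, and oxidative phosphorylation genes had −0.05 log2 over 76 probes, with ND-15, a complex I subunit, at 0.41 log2 (SE 0.12, adjusted p = 0.719).

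Cell cycle lists had medians near 0. The median was 0.02 log2 over 13 DNA replication genes, all but 1 of which had an interval within 0.5 log2 of 0. It was 0.06 log2 over 8 mitotic cyclins and regulators, where all 8 intervals lay within that range. Of all probes, 72.4% had an interval within it. In the mitotic list pim, the securin of the fly, was at 0.24 log2 (SE 0.11, adjusted p = 0.903), with HMG-minus arrays at 0.27 to 0.38 log2 and DichaeteWT arrays at −0.12 to 0.21. Small heat shock and chaperone genes had a median of −0.03 log2 over 7 probes, and the tektin and ciliary list −0.10 log2 over 6.

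**Figure D5:**
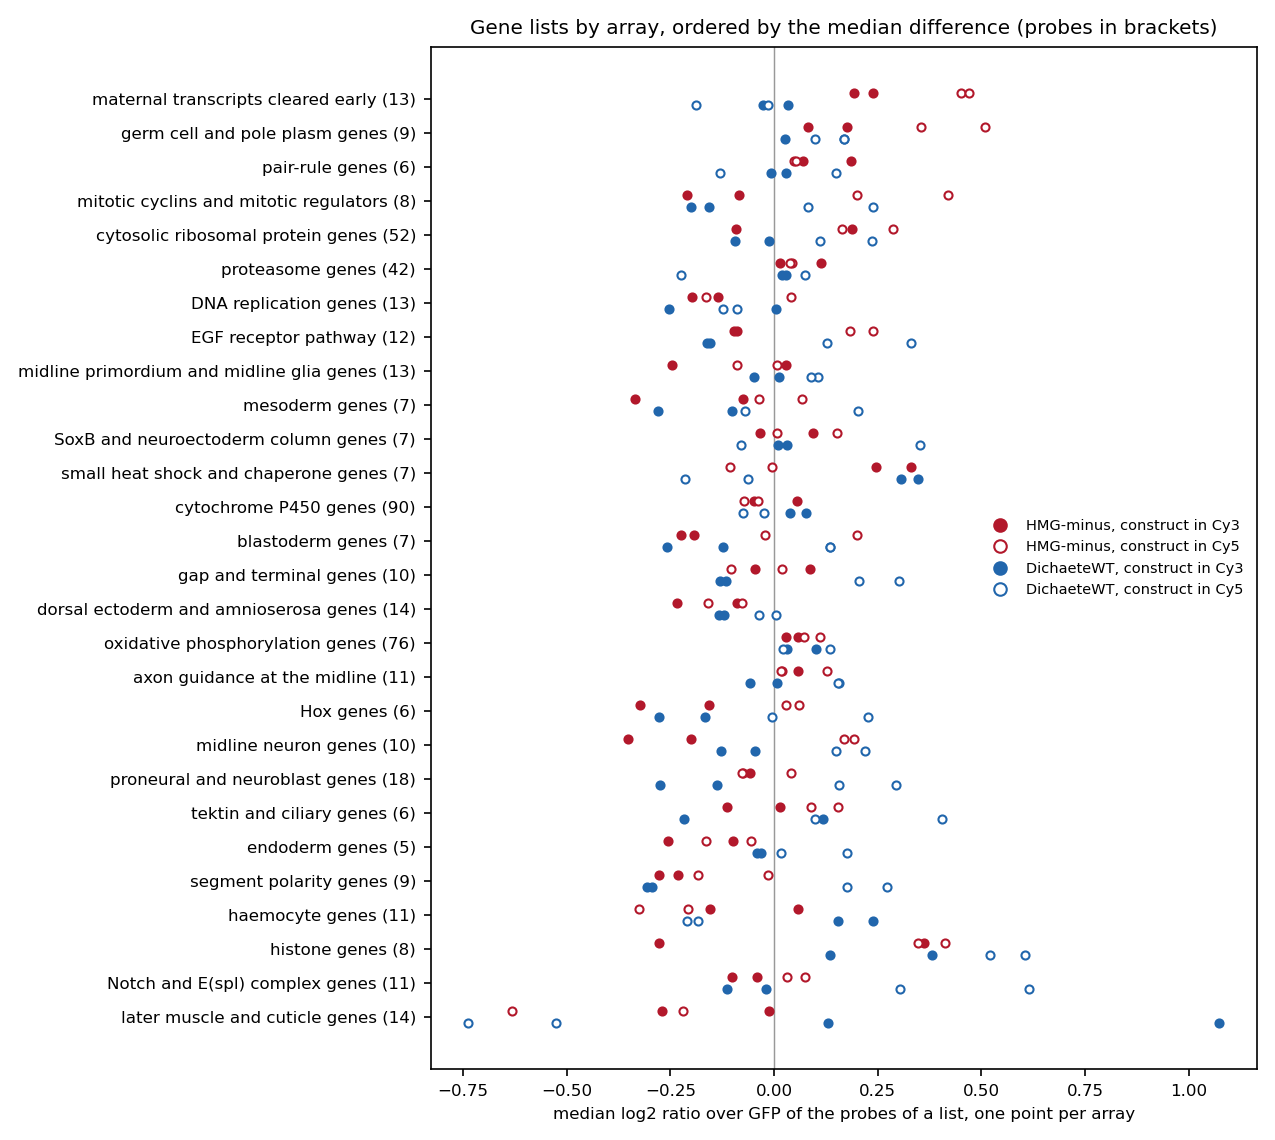
Each point is the median log2 ratio over GFP of the probes of a list on 1 array (horizontal axis), with HMG-minus in red above DichaeteWT in blue, filled for the construct in Cy3 and open for Cy5, and lists ordered from the highest median difference at the top to the lowest at the bottom. Maternal transcripts, with HMG-minus arrays at 0.19 to 0.47 and DichaeteWT arrays at −0.19 to 0.03, and endoderm genes are the lists whose arrays do not overlap, and DichaeteWT replicate 2 is the point at 1.07 for later muscle and cuticle genes.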

How the data were processed

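Per the labels' protocols, embryo RNA was labelled with Cy3 or Cy5 and hybridised as construct against GFP. Per the file headers, the deposited array files give the median pixel intensity per spot and its local background, not normalized, as Dapple measured it. The authors also deposited a table of log2 ratios per spot. Per the submitters' processing notes limma was used, with no version, and the normalization is not given in the sources used here.

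The intensities were analysed with limma 3.58.1 in R 4.3.3. The 14569 of 18240 spots that the value table lists were used. Background was corrected by normexp (offset 50), each array was normalised by global loess, ratios were signed construct over GFP, and spots of a probe were averaged, leaving 14485 probes, of which 12574 carry 1 gene symbol. A linear model over all 12 arrays gave each construct a mean and all arrays 1 dye term, with empirical Bayes variances. The difference of the 2 means was tested (two-sided), p-values were adjusted over all probes (Benjamini-Hochberg), with 0.05 as the threshold. An interaction fit asked whether the difference depended on dye orientation.

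Named probes were the 10 in each direction with the smallest unadjusted p of the difference, since none was called, the genes D, SoxN, vvl, sli and comm, the 8 in each direction with the largest called change over GFP of each construct and the same sign on 4 arrays, and up to 3 members with the smallest p from each of 28 lists. Not every probe so chosen is reported here. Probes accepted on fewer than 2 arrays of a group are given no size in the results above. RpL28, Cyp28d1 and ems, with values in the additional observations, are of this kind. Other list members given with values were added after their values were seen. The comparison, the members and the lists were chosen with earlier results of these data known. A gene list is described by counts and its median, with no test. The fit was tested on simulated data with independent noise, where 2 of 106 calls were false. Among the alternatives were other background corrections and offsets, other normalizations, filters on dim probes and rejected spots, fits without the dye term, with a replicate block, with array weights or with another variance prior, the deposited log2 ratios, the 8 arrays alone, and each array left out in turn. The construct channel fitted alone was added after seeing the data. Its intensities were taken after both channels were normalised together, so the GFP channel still entered them. Gene names come from the platform's annotation. Figures were drawn with matplotlib 3.10.9.

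Replicate numbers do not pair the arrays. After the dye term, residuals of same-numbered HMG-minus and DichaeteWT arrays correlated at −0.47 to −0.04.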

Additional observations from a re-analysis of the deposited data

Results flagged for a closer look

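Among 298 groups of 4 arrays examined, over named probes and list medians, 14 had an array at one end whose distance to its nearest neighbour took up most of the group's range, past Dixon's critical value. Chance gives such an array in about 1 group in 20, so 14 is close to that share and no pattern is read from them.

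Of the HMG-minus arrays, replicate 1 was apart for GATAe at 0.25 log2, with the others between −0.45 and −0.37, for the histone median at −0.28, with the others between 0.35 and 0.41, and for ems at 0.0052, with the others between −0.30 and −0.25. HMG-minus replicate 2 was apart for Cyp4p2 at −0.80, with the others between −1.70 and −1.56, for oc at −0.54, for RpS12 at 0.13 and for the median of pair-rule genes at 0.19. HMG-minus replicate 4 was apart for RpL28 at 0.32, for Cyp28d1 at 0.0935 and for the median of proneural and neuroblast genes at 0.0403. The spots of RpL28 and Cyp28d1 were accepted on no HMG-minus array.

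Of the DichaeteWT arrays, replicate 1 was apart for Pxt at 0.64 log2, with the others between −0.40 and −0.25. DichaeteWT replicate 3 was apart for Dfd at 0.25, with the others between −0.15 and −0.08, and for if at 0.48, with the others between −0.07 and 0.01. DichaeteWT replicate 4 was apart for GATAe at −0.41, with the others between −0.04 and −0.03.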

How the results depend on the processing

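The count of 0 probes called between HMG-minus and DichaeteWT held under every alternative run except print-tip loess (3 probes: CG14736, Obp57a and tld), array weights (2, both unnamed) and leaving out EnRep replicate 4 (2, CG12546 and 1 unnamed probe). Leaving out each array in turn gave 0 to 2.

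The counts over GFP moved more. For HMG-minus, with 124, they were 380 with print-tip loess, 1099 with array weights, 76 with median centring, 23 without the dye term and 9 with trended and robust variance, and leaving out arrays gave 17 (without HMG-minus replicate 4) to 238 (without EnRep replicate 4). For DichaeteWT, with 125, the same settings gave 466 with print-tip loess, 276 with array weights, 25 without the dye term and 6 with trended and robust variance, and the deposited ratios gave 65, against 186 for HMG-minus. Leaving out arrays gave 16 (without DichaeteWT replicate 2) to 235 (without EnRep replicate 4). Median centring turned the split of the DichaeteWT calls to 30 higher and 82 lower, against 55 and 70. Dependence on dye orientation, with 0, was called for 7 probes with accepted spots only and 54 with the 8 arrays alone, and leaving out arrays gave 0 to 120. The fits without the dye term and with the block give no such count. The causes were not tested.

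With the replicate number as a block, 0 probes were called for the difference, 62 for HMG-minus over GFP and 39 for DichaeteWT over GFP. The numbers do not pair the arrays.

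The median of maternal transcripts was 0.16 log2 with the construct channel fitted alone, an alternative added after seeing the data. In the other settings run it was 0.26 to 0.40 log2. With the construct channel fitted alone the medians of midline primordium and glia genes (−0.15), endoderm genes (−0.22) and proteasome genes (0.14) also moved. They lay outside the range that leaving out single arrays gave.

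Signs of small differences turned. With the construct channel fitted alone they did so for CG14960 (0.22), sli (−0.048), D (0.0479), SoxN (−0.13), the second HnRNP-K probe (0.13), ems (0.0456, a spot accepted on 1 DichaeteWT array), ftz (0.0448), zfh1 (0.11), GATAe (0.0843), zld (0.0112), term (0.0091) and CycB (−0.16). With array weights they did so for comm (−0.0743), SoxN (−0.037), the first HnRNP-K probe (0.0676), CG13991 (0.0116), ftz (0.0350) and nompB (0.0180). Print-tip loess turned Faa (−0.0403), CG13991 (0.0039), ftz (0.0011) and Antp (−0.0264), and median centring turned HnRNP-K (0.0701) and CG13991 (0.0581). Accepted spots only turned HnRNP-K (0.0017) and ftz (0.0112), no background correction turned CG13991 (0.0042) and nompB (0.0119), and the deposited ratios turned CG14453 (−0.0723) and nompB (0.0871). Leaving out single arrays gave −0.0406 to 0.11 for sli, −0.31 to 0.0254 for vvl, −0.0274 to 0.15 for comm, −0.15 to 0.12 for Faa, −0.0616 to 0.0473 for HnRNP-K, −0.0759 to 0.0229 for CG13991, −0.17 to 0.0112 for ftz, −0.0189 to 0.21 for Antp, −0.27 to 0.0278 for term and −0.25 to 0.0047 for nompB.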

Other observations

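Among named genes outside those chosen by rule, mtrm, which inhibits Polo kinase in the meiosis of the oocyte, had one of the largest differences and was picked after its value was seen. It had 0.27, 0.47, 1.27 and 1.17 log2 in HMG-minus embryos, against 0.16, −0.67, −1.25 and 0.04 in DichaeteWT embryos. The groups did not overlap, and the difference was 1.23 log2 (SE 0.30, 95% interval 0.59 to 1.87, limma adjusted p = 0.622), with 0.63 on the Cy3 and 1.83 on the Cy5 arrays. Of the largest negative differences, some were in genes of cuticle, also picked after their values were seen, with wide errors. Cpr64Ad, a cuticle protein gene, ran from −1.78 to −1.30 log2 over the HMG-minus arrays and from −1.28 to 2.94 log2 over the DichaeteWT arrays, a difference of −1.56 log2 (SE 0.97), and DichaeteWT replicate 2 was its high array. Osi6, a member of the Osiris family of tracheal and cuticle genes, had a difference of −1.53 log2 (SE 0.63, adjusted p = 0.903).

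Probes without a gene symbol included some of the largest values of the comparison. Their transcripts are not named here, and reporter numbers of the platform stand for them. Reporter 1000044200 had 1.76, 1.50, 1.67 and 1.68 log2 in HMG-minus embryos, against 0.91, 0.86, −0.57 and −0.29 in DichaeteWT embryos. All HMG-minus values lay above all DichaeteWT values, and the difference was 1.43 log2 (SE 0.23, 95% interval 0.94 to 1.91, limma adjusted p = 0.146). Reporter 1000044210 had −0.41, −0.63, −0.55 and −0.28 log2 in HMG-minus embryos, against 0.11, 0.13, 0.74 and 0.49 in DichaeteWT embryos, a difference of −0.83 log2 (SE 0.12, adjusted p = 0.146) without overlap. Both passed with array weights (1.48 and −0.82 log2, adjusted p = 0.0347 each).

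The reporters numbered next to the second of these, 1000044209 and 1000044211, had differences of −0.68 log2 (SE 0.19, adjusted p = 0.719) and −0.72 log2 (SE 0.16, adjusted p = 0.538). These neighbours were picked after their values were seen. They and 1000044210 were printed at the same position within their print-tip blocks, in blocks of the same column. Whether print position took part was not tested.

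When only the 8 arrays were fitted, the dependence of the difference on dye orientation was called for 54 probes, all more positive with the construct in Cy5, against 0 in the fit of all 12 arrays. Named among them were genes of muscle (Prm, Zasp66), of larval gut proteases (Jon65Aiv) and of cuticle (TwdlX), chosen here after their values were seen. Prm, paramyosin, had −0.53, −0.05, −0.62 and −0.02 log2 in HMG-minus embryos, against 1.35, 1.68, −0.48 and −0.85 in DichaeteWT embryos. DichaeteWT replicates 1 and 2 were the high arrays, and the difference was −1.80 log2 on the Cy3 and 0.34 log2 on the Cy5 arrays. The same count of probes was 7 with accepted spots only.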
